A study of Mus musculus with 6 samples.

Results

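Mitosis and G2/M genes encode the cyclins, kinases, kinetochore proteins, spindle motors and cytokinesis factors with which a dividing cell separates its chromosomes. Their transcripts were followed in bone marrow-derived macrophages, phagocytes grown in culture from mouse marrow precursors. A list of 38 such genes was chosen by symbol, and all 38 matched a row among the 56691 gene rows of the count files. All 38 also passed the expression filter, among 14856 genes tested. Cells from the marrow of 3 mice (a, b and c) were plated on day 4 of differentiation and treated on day 6 for 24 h. The drug group received 2 µM thiothixene, an antipsychotic that blocks dopamine receptors, and the control group received DMSO, a solvent. Each mouse gave a library to each group, so 3 thiothixene libraries stood against 3 DMSO libraries. Strain, sex and age of the mice are not given in the labels. Each library is a culture of primary cells and can hold cycling and non-cycling cells together.

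In a dividing cell, cyclin A2 and the B cyclins activate the kinase CDK1 in G2, and their RNAs and proteins are made in that part of the cycle. The chromosomal passenger complex, Polo and Aurora kinases then drive spindle assembly, while the checkpoint kinases hold the anaphase-promoting complex until every kinetochore is attached. Because quiescent cells make little of these RNAs, the genes are widely read as a sign of how many cells divide. Macrophages in culture divide in response to colony-stimulating factor 1 and stop as they mature.

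Counts assigned to genes were 10472349 to 22297520 per library, the fewest in the mouse b control. Log2 levels correlated between libraries at 0.825 to 0.981 over tested genes. Of these, 3 libraries stood apart from the rest, the drug library of mouse a and the controls of mice b and c. The mouse a drug library did so least, at 0.949 to 0.958 with the other drug libraries and the mouse a control. Unaligned reads made up 4.98% of its counts and 4.52% in the mouse c control, against 1.85% to 2.31% elsewhere. Genes with a count numbered 16477 in the mouse c control and 18546 to 19767 elsewhere. Levels are given in CPM, gene counts relative to the TMM-scaled library size. Macrophage markers summed to 9571 to 11310 CPM with thiothixene and 9963 to 17550 CPM with DMSO, and 9 of 10 passed the filter. Itgam held 1 count in all libraries together. Stromal markers, 7 of 8 tested, summed to 57.5, 113 and 301 CPM with thiothixene in mice a, b and c and to 101 to 176 CPM with DMSO. The drug library of mouse c, with the highest stromal level, was also the one of lowest mitosis level, and Lum was at 0 in all. Neutrophil and granulocyte precursor markers, 11 of 12 tested, summed to 341 to 408 CPM with thiothixene and 367 to 865 CPM with DMSO, the highest in mouse b. Progenitor markers summed to 212 to 267 CPM with thiothixene and 138 to 284 CPM with DMSO, nearly all of it Cdk6, which is also a G1 kinase, and Flt3 held at most 1 count per library. B cell, T cell, erythroid and dendritic cell markers summed to at most 8.70 CPM per list in any library, with Ms4a1 and Cd3d at 0. The part of these cells in the results was not tested.

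The mitosis genes did not differ between thiothixene and DMSO beyond the spread between libraries. Their summed level was 5019, 4370 and 3035 CPM after thiothixene in mice a, b and c. It was 4747, 4099 and 4967 CPM after DMSO in the same mice. The groups overlapped, and the lowest of the 6 was the thiothixene library of mouse c. The mean of the sum was 4141 ± 1011 CPM in the drug group against 4604 ± 451 CPM in controls (SD, n = 3 each). In bulk RNA, fewer dividing cells and less of these RNAs per dividing cell cannot be told apart.

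In edgeR's quasi-likelihood test 0 of the 38 genes passed an adjusted p of 0.05, as did 0% of all 14856 genes tested. At an unadjusted p under 0.05 the count was 0 of 38, against 1.72% of all tested genes. DESeq2 called 0 of 38, against 0.00815% of all genes it tested. The groups overlapped for 38 of 38 members. Of all tested genes, 2.77% had every drug value below every control value and 3.88% had every drug value above. The log2 fold change was below 0 for 34 of the 38 genes, and for 54.7% of all tested genes. The median log2 fold change over the members was -0.19, beside -0.04 over all tested genes. Without the thiothixene library of mouse c the median over the members was -0.02, and 21 of 38 were below 0. Every one of the 38 intervals at 95% included 0. Their width differed between genes, from -0.74 to 0.49 for Kif20a, which had the smallest SE (0.27), to -1.33 to 1.05 for Plk1, which had the largest (0.52). Each interval holds the differences that remained compatible with that gene's values at this spread.

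**Figure D1:**
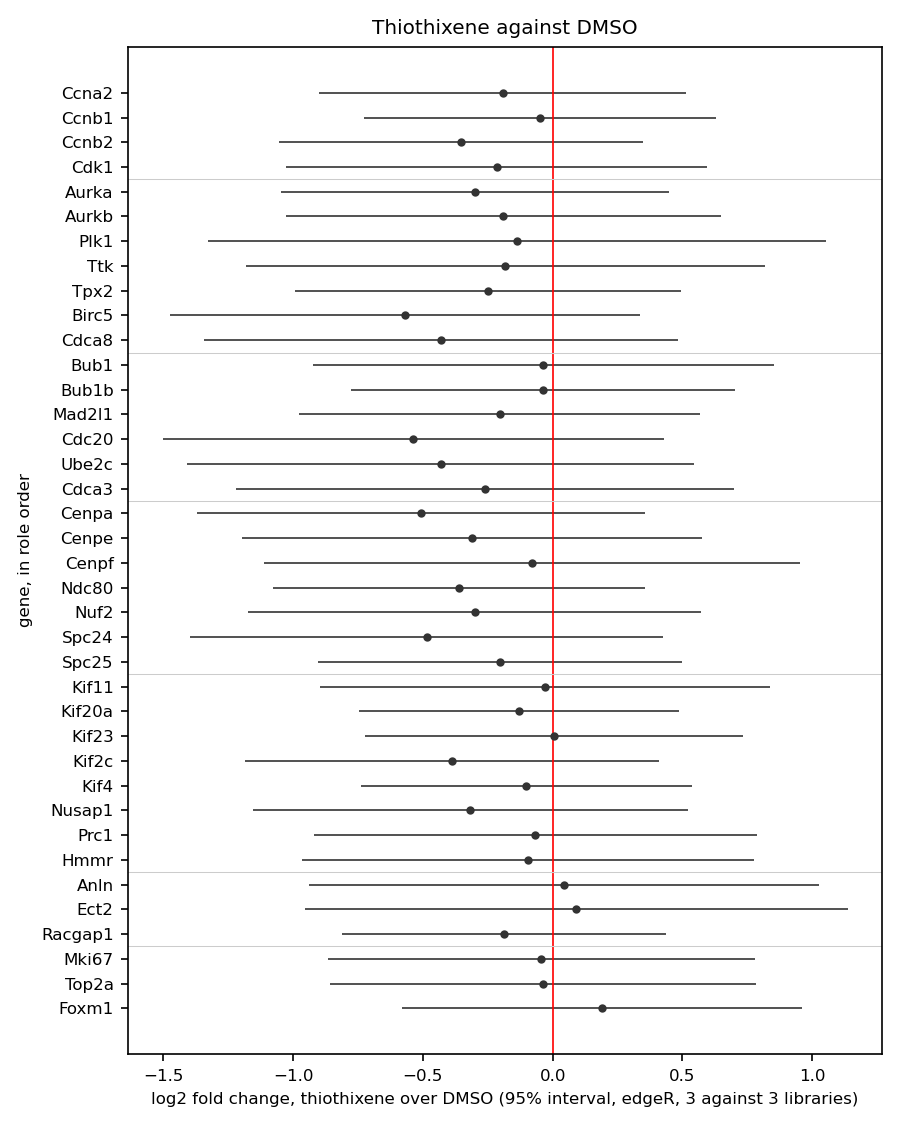
Log2 fold change of thiothixene over DMSO for each of the 38 genes (horizontal axis, points) with the 95% interval from edgeR (lines), 3 against 3 libraries, in role order. The points run from -0.57 for Birc5 to 0.19 for Foxm1, and all 38 intervals cross 0.

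A feature shared by many of the 38 genes, which their choice did not use, lies in their promoters. The cell cycle genes homology region, or CHR, is an element read by the MuvB complex that represses mitotic genes in quiescence and activates them in G2. The CCAAT box is bound by the factor NF-Y. RefSeq promoter windows on GRCm38.p6, from 250 bases before to 50 bases after an annotated start, were found for 32 of the 38 genes, in 34 windows. Searched on both strands, the CHR letters TTTGAA or TTCGAA occurred in 28 of 34 member windows (82.4%) and in 19.2% of all 32851 windows. TTCGAA reads the same on both strands and was counted once per place. The letters CCAAT occurred in 27 of 34 member windows (79.4%) and in 37.4% of all windows. Windows with both made up 25 of 34 (73.5%), against 7.53% of all windows. A CHR match beginning within 50 bases of the start, a limit not set in advance, was present in 26 of 34 (76.5%), against 5.31% of all windows. The E2F core letters TTCCCGC or TTGGCGC were present in 5 of 34 (14.7%), against 6.81% of all windows. In the Ccnb1 window and both Ect2 windows the E2F match shares bases with a CCAAT box, and the Ect2 windows hold the same site. In Mki67 and Cdk1 it lies apart from the boxes. How often such matches share bases over all windows was not determined.

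The promoters below are printed because they show the CHR letters and the CCAAT boxes together before the start, or the even spacing of the boxes. Each runs 5′ to 3′ on the strand of its gene and ends at the base before the annotated RefSeq start, which is position -1. Capitals mark the CCAAT box and the CHR letters, which on the other strand read ATTGG for the box and TTCAAA for the CHR form TTTGAA.
Cdk1, the mitotic kinase, chr10:69352913-69353032, minus strand: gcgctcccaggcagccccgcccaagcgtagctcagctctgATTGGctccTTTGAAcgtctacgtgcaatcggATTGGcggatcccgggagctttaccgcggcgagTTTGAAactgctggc
Top2a, chr11:99024190-99024309, minus strand: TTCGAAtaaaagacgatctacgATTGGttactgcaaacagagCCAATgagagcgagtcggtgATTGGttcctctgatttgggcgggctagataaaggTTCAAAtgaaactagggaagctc
Ube2c, chr2:164769809-164769928, plus strand: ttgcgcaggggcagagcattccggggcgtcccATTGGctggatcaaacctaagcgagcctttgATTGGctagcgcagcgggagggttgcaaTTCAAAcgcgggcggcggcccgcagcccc
Cdc20, chr4:118437344-118437463, minus strand: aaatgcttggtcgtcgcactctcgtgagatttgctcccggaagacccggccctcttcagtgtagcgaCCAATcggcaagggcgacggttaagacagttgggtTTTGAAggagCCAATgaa
Kif11, chr19:37376262-37376381, plus strand: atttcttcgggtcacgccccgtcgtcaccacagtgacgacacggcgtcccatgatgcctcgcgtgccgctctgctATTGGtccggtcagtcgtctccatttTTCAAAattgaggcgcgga
Ccnb1, cyclin B1, chr13:100786487-100786606, minus strand: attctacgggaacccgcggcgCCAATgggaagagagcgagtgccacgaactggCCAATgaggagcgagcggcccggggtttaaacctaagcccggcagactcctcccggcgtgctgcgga
Ccnb2, cyclin B2, chr9:70421555-70421674, minus strand: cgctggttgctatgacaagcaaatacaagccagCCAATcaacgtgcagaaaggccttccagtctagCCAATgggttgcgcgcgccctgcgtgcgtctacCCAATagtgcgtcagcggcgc
Mki67, chr7:135716380-135716529, minus strand: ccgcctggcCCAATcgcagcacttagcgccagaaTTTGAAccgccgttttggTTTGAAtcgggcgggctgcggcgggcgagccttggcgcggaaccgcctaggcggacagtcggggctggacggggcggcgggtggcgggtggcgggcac

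In Cdk1 the CHR letters begin at -71 and at -15, and its CCAAT boxes at -80 and -48 begin 32 bases apart. In Ccnb2 3 boxes begin at -87, -54 and -21, so each begins 33 bases from the next. A CHR match in Ccnb2 begins 4 bases after the annotated start, outside the printed stretch. The boxes of Ccnb1 begin 32 bases apart, and those of Ube2c at -88 and -57 begin 31 bases apart. Boxes that begin 30 to 36 bases apart were present in 9 of 34 member windows (26.5%) and in 1.87% of all windows, a spacing chosen after the positions were seen. The CHR letters begin at -18 in Cdc20, at -19 in Kif11, at -29 in Ube2c and at -23 in Top2a. In Mki67 they begin at -116 and -98. No CHR letters were found in the windows of Birc5, Ccnb1, Cenpe, Mad2l1, Nuf2 and Nusap1, which says only that these letters are not in those windows. Windows of other mitosis genes held the CHR letters in 42 of 77 (54.5%) and both CHR and CCAAT in 28 of 77 (36.4%), so these letters were not limited to the 38 genes. Windows of DNA replication and G1/S genes held the CHR letters in 7 of 40 (17.5%) and the E2F core letters in 18 of 40 (45.0%). The letters CCAAT were common in both lists, so they were not particular to the 38 genes. They occurred in 50 of 77 windows (64.9%) of other mitosis genes and 24 of 40 (60%) of DNA replication and G1/S genes. A match is a description of letters, and binding was not measured here.

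**Figure D2:**
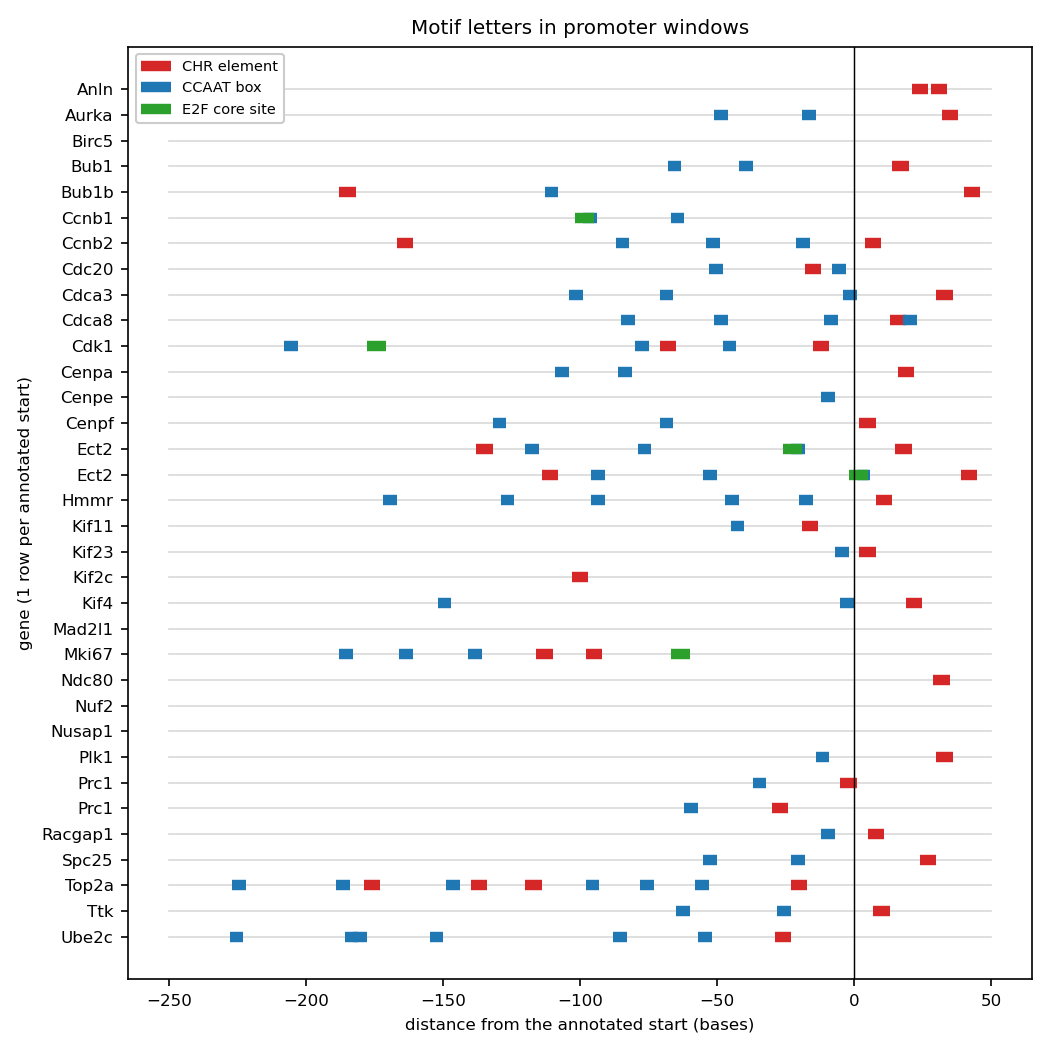
Places of the CHR element (red), CCAAT box (blue) and E2F core site (green) by distance in bases from the annotated start (vertical line at 0), 1 row for each of 34 promoter windows of 32 genes. Red marks lie within 50 bases of the start in 26 of the 34 windows, and blue marks lie mostly before it.

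The G2/M cyclins and their kinase all had log2 fold changes below 0, from -0.35 to -0.05, with a median of -0.20. Cyclin B1 (Ccnb1, ENSMUSG00000041431.17, chromosome 13, 100778650 to 100786570, minus strand of GRCm38) measured 118, 107 and 70.1 CPM with thiothixene in mice a, b and c. With DMSO it measured 105, 90.5 and 110 CPM. The groups overlapped, and the log2 fold change was -0.05 (SE 0.30). Cyclin B2 (Ccnb2), the companion B-type cyclin, measured 47.9, 61.5 and 41.3 CPM with thiothixene and 58.9, 82.1 and 51.6 CPM with DMSO. The thiothixene library was the lower in 3 of 3 mice, yet the groups overlapped and the log2 fold change of -0.35 (SE 0.31) did not pass. Cdk1 (ENSMUSG00000019942.14, chromosome 10, 69335146 to 69352938, minus strand) measured 94.3, 116 and 83.1 CPM with thiothixene. With DMSO it measured 126, 149 and 66.2 CPM, so the DMSO libraries held both the highest and the lowest value. Its log2 fold change was -0.22 (SE 0.35). Cyclin A2 (Ccna2), which acts in S phase and G2, was at -0.19.

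Among 7 mitotic kinases and cofactors the log2 fold changes ran from -0.57 to -0.14, all below 0. Birc5, or survivin, a subunit of the chromosomal passenger complex, had the lowest value of all 38 genes. It measured 107, 82.9 and 54.1 CPM with thiothixene and 75.1, 172 and 115 CPM with DMSO. The value of 172 CPM in the DMSO library of mouse b stood above the rest, and in mouse a the drug library was the higher. Birc5 was at -0.57 (SE 0.39), and its 95% interval reached from -1.47 to 0.34. Plk1, the Polo-like kinase of mitotic entry, measured 40.1, 80.7 and 47.0 CPM with thiothixene and 78.2, 84.9 and 21.7 CPM with DMSO. Its 3.91-fold range over the 6 libraries was the widest of the members, and both ends lay in the DMSO group. Plk1 was at -0.14 (SE 0.52). The Aurora kinases Aurka and Aurkb were at -0.30 and -0.19. Tpx2, which activates Aurora A at the spindle, was at -0.25, Cdca8 (borealin, of the passenger complex) at -0.43 and the checkpoint kinase Ttk at -0.18.

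The checkpoint and anaphase-promoting complex genes were all 6 below 0, with a median of -0.23. Bub1, a checkpoint kinase at kinetochores, measured 138, 84.8 and 72.2 CPM with thiothixene and 97.5, 64.2 and 141 CPM with DMSO. The means were 98.5 ± 35.2 and 101 ± 38.5 CPM, and the log2 fold change was -0.04 (SE 0.39). Cdc20, the activator of the anaphase-promoting complex, measured 29.2, 46.0 and 40.4 CPM with thiothixene and 54.4, 85.2 and 28.4 CPM with DMSO. It was lower with the drug in mice a and b and higher in mouse c, and the log2 fold change was -0.54 (SE 0.42). The ubiquitin-conjugating enzyme gene Ube2c, whose product works with that complex, was at -0.43. Bub1b and Mad2l1 of the checkpoint were at -0.04 and -0.20, and Cdca3 at -0.26.

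The 7 kinetochore and centromere genes had the lowest median of the role groups, -0.31, and ran from -0.51 to -0.08. Cenpa, the histone H3 variant that marks the centromere, measured 70.0, 87.2 and 51.4 CPM with thiothixene and 107, 132 and 57.5 CPM with DMSO. It was the lower with the drug in 3 of 3 mice, while the groups overlapped and the log2 fold change was -0.51 (SE 0.38). Cenpf, a large kinetochore protein of G2, measured 97.6, 81.4 and 53.9 CPM with thiothixene and 92.6, 36.2 and 117 CPM with DMSO. Its DMSO values spanned the thiothixene values, and it was at -0.08 (SE 0.45). The microtubule-binding NDC80 complex has 4 subunits, and its genes Ndc80, Nuf2, Spc24 and Spc25 were at -0.36, -0.30, -0.49 and -0.20. Cenpe, a kinetochore motor, was at -0.31.

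Spindle motors and microtubule proteins, 8 genes, ran from -0.39 to 0.01 with a median of -0.10. Kif23, a motor of the spindle midzone, measured 168, 152 and 89.8 CPM with thiothixene and 144, 115 and 150 CPM with DMSO. The drug library of mouse c was the lowest of the 6 and that of mouse a the highest, and the log2 fold change was 0.01 (SE 0.32). Kif2c, a microtubule-depolymerising kinesin, measured 44.6, 47.9 and 35.2 CPM with thiothixene and 59.3, 74.0 and 33.9 CPM with DMSO (-0.39, SE 0.35). Kif11, the motor that separates spindle poles, was at -0.03, Kif20a at -0.13 and the chromosome motor Kif4 at -0.10. The microtubule-binding genes Nusap1, Prc1 and Hmmr were at -0.32, -0.07 and -0.09.

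The 3 cytokinesis genes lay around 0. Ect2, which activates RhoA at the division plane, measured 93.0, 68.0 and 50.5 CPM with thiothixene and 76.3, 28.5 and 93.5 CPM with DMSO. The DMSO library of mouse b was the lowest by a wide margin, and the log2 fold change was 0.09 (SE 0.46). Racgap1, a centralspindlin subunit that binds Ect2, measured 176, 157 and 121 CPM with thiothixene and 185, 173 and 159 CPM with DMSO. Thiothixene was the lower in 3 of 3 mice by log2 ratios of -0.07, -0.14 and -0.39, and the log2 fold change was -0.19 (SE 0.27). Anln, the contractile ring protein anillin, was at 0.04.

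Mki67, the proliferation marker Ki-67 (ENSMUSG00000031004.9, chromosome 7, 135689784 to 135716361, minus strand of GRCm38), measured 681, 641 and 412 CPM with thiothixene. With DMSO it measured 642, 370 and 774 CPM. The highest and the lowest values were both DMSO libraries, and the log2 fold change was -0.04 (SE 0.36). Top2a, the topoisomerase that untangles sister chromatids, measured 682, 516 and 374 CPM with thiothixene and 604, 344 and 665 CPM with DMSO. It followed the same order within the DMSO group as Mki67, with mouse b lowest and mouse c highest (-0.04, SE 0.36). Foxm1 encodes the transcription factor that activates G2/M genes. Its levels were 68.7, 82.4 and 61.8 CPM with thiothixene and 90.1, 47.9 and 48.5 CPM with DMSO. Foxm1 had the highest log2 fold change of the 38, 0.19 (SE 0.34), and was lower with the drug in mouse a and higher in mice b and c.

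Per length, Top2a and Mki67 had the highest levels, at 58.9 ± 16.1 and 58.3 ± 15.9 CPM per kilobase of annotated exon (SD over the 6 libraries). These did not differ beyond their spread. Ccna2 followed at 47.7 ± 9.88, Ube2c at 38.8 ± 17.97 and Ccnb2 at 37.4 ± 9.29 CPM per kilobase, each within the spread of its neighbour. At the other end stood Spc24 at 7.44 ± 2.90, Ttk at 7.04 ± 2.74 and Cenpf at 5.17 ± 1.94 CPM per kilobase. All annotated exons were counted as length, so a gene with long minor isoforms is placed too low. The rarest value behind these levels was 182 counts and the largest 18153 counts in a library. Exons of 11 of the 38 genes overlap those of another gene, such as Kif20a with Cdc23 and Prc1 with Rccd1. For 9 of them the other gene lies on the opposite strand, and since the use of strand in counting is not stated, those 9 levels are less certain. For Top2a and Foxm1 the overlapping genes lie on the same strand and held 0 counts. How reads in shared exons were counted is not stated, so that 0 does not show that the Top2a and Foxm1 levels are unaffected.

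**Figure D3:**
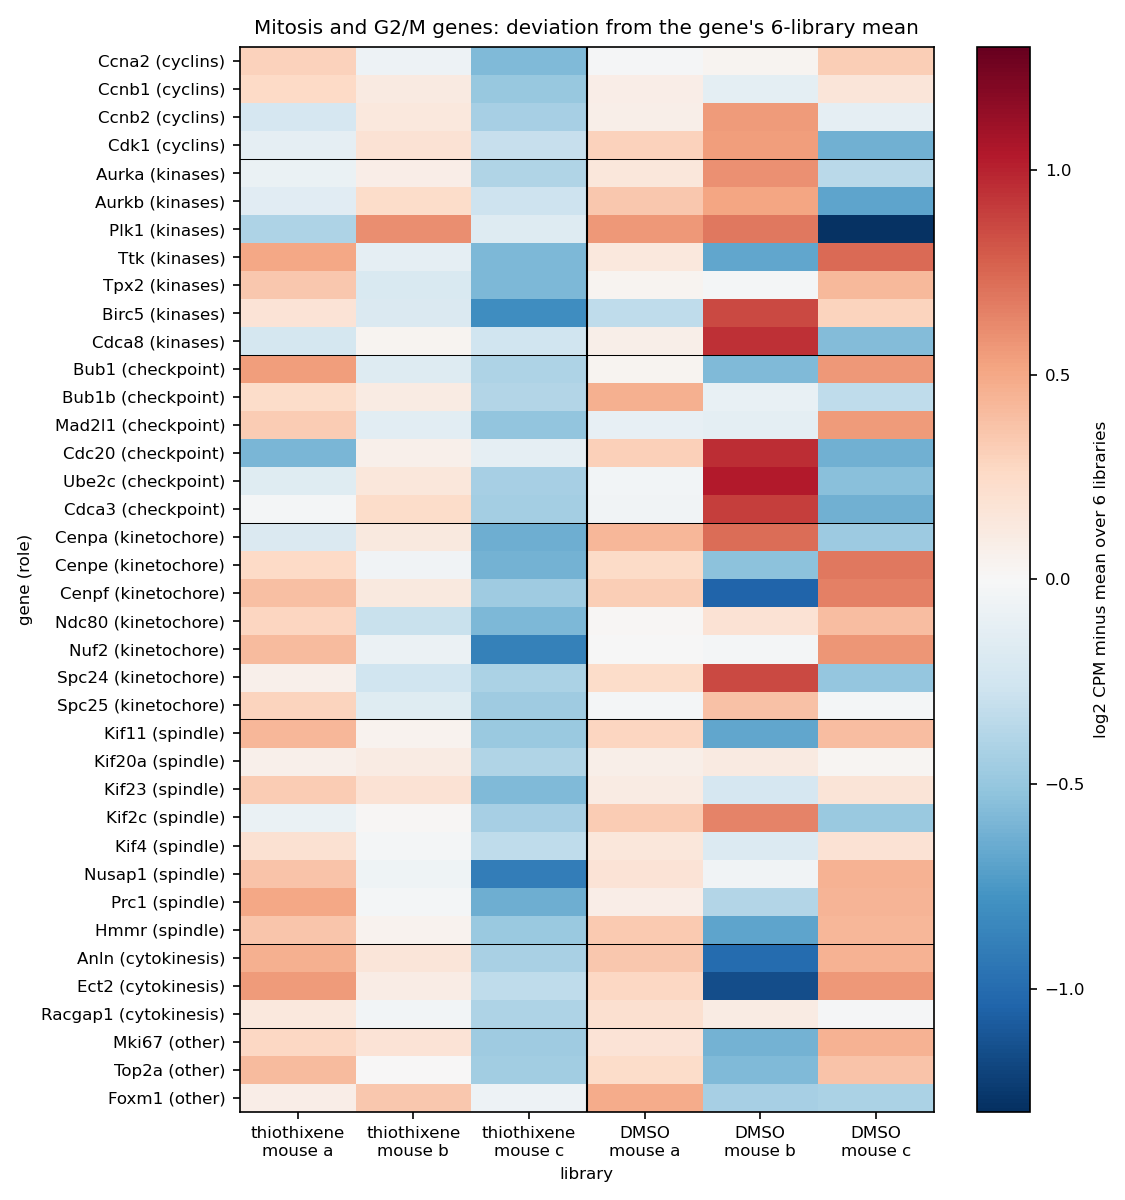
Log2 CPM of each gene minus its mean over the 6 libraries (colour, red above and blue below the mean), genes in rows by role and libraries in columns. The thiothixene library of mouse c is blue throughout, and the controls of mice b and c show opposite colours for many genes.

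A single library held the lowest drug value of most members. Within the drug group the mouse c library had the lowest level for 36 of 38 members, where 31.7% of all tested genes had their lowest drug value there. Over all 6 libraries it was the lowest for 19 of 38, against 8.13% of all tested genes. The median deviation of the members from their 6-library means was -0.45 (log2) in it, while the other drug libraries were at 0.26 (mouse a) and 0.05 (mouse b). The DMSO libraries were at 0.16, -0.02 and 0.18 for mice a, b and c. The mouse b control was the highest of the 6 for 15 members and the lowest for 10, beside 33.9% and 34.0% of all tested genes. The mouse c control was the highest for 13 and the lowest for 9, beside 27.1% and 31.7%. These counts in the controls lay near those of all tested genes.

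Within mice the direction was not shared. In mouse a 15 of 38 genes were lower with the drug and the median log2 ratio was 0.06. In mouse b 22 were lower, with a median of -0.04. In mouse c 28 were lower, with a median of -0.70. Among all tested genes 52.0%, 49.4% and 48.1% were lower in mice a, b and c. The widest ratios in mouse c were -1.45 for Nuf2 and 1.11 for Plk1. Only Ccnb2, Aurka, Cenpa, Kif20a and Racgap1 were lower in 3 of 3 mice, which is 13.2% of the members and compares with 6.82% of all tested genes. No member was higher in 3 of 3 mice, against 1112 of all 14856 tested genes. The difference between mice was not tested, since each mouse gave 1 library per treatment.

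**Figure D4:**
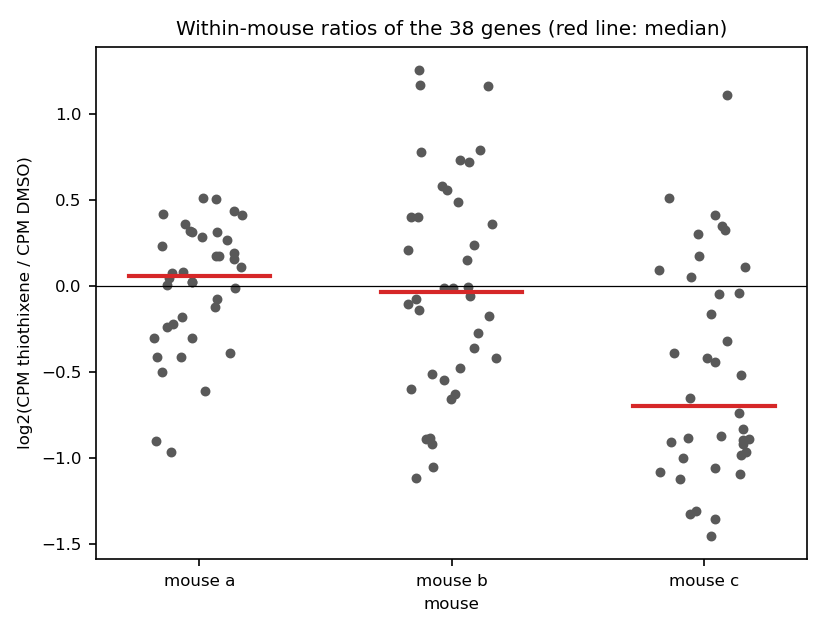
Log2 ratio of CPM with thiothixene over DMSO within each mouse for the 38 genes (points, spread sideways to be visible) with the median (red line). The medians are 0.06 in mouse a, -0.04 in mouse b and -0.70 in mouse c, and points lie on both sides of 0 in every mouse.

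The split of the members in the controls of mice b and c went with the base composition of their transcripts. GC content of the member transcripts ran from 40.1% to 56.0%. Across the 38 genes, which share each library and are not independent, the deviation correlated with GC content at Pearson r = -0.88 (Spearman rho = -0.86) in the mouse c control. The value was r = 0.71 (rho = 0.72) in the mouse b control and r = -0.83 (rho = -0.84) in the mouse a drug library. It was r = 0.25 in the DMSO library of mouse a, and 0.46 and 0.59 in the drug libraries of mice b and c. Over 14565 tested genes the same relation had r = -0.55, 0.43 and -0.45 in the first 3 of these libraries, so it was not limited to mitosis genes. The deviation also correlated with log2 transcript length, at r = -0.73 in the mouse b control, 0.59 in the mouse c control and 0.54 in the mouse a drug library, and GC content and length were themselves related at r = -0.48.

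The 19 members of higher GC content, such as Plk1, Cdc20, Ube2c, Spc24 and Foxm1, summed to 1671, 2054 and 1278 CPM in the DMSO libraries of mice a, b and c. With thiothixene they summed to 1487, 1556 and 1113 CPM. The 19 of lower GC content, such as Mki67, Top2a, Ect2, Cenpf and Anln, summed to 3076, 2045 and 3689 CPM with DMSO and to 3531, 2814 and 1922 CPM with thiothixene. Both sums were lowest in the drug library of mouse c, and they moved in opposite directions between the mouse b and mouse c controls. By the median deviation of the genes (log2), which abundant genes do not dominate, the lowest library was another. The higher set was at -0.47 in the mouse c control and -0.39 in the mouse c drug library. The lower set was at -0.54 in the mouse b control and -0.50 in the mouse c drug library. The median log2 fold change was -0.26 for the higher and -0.08 for the lower set.

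**Figure D5:**
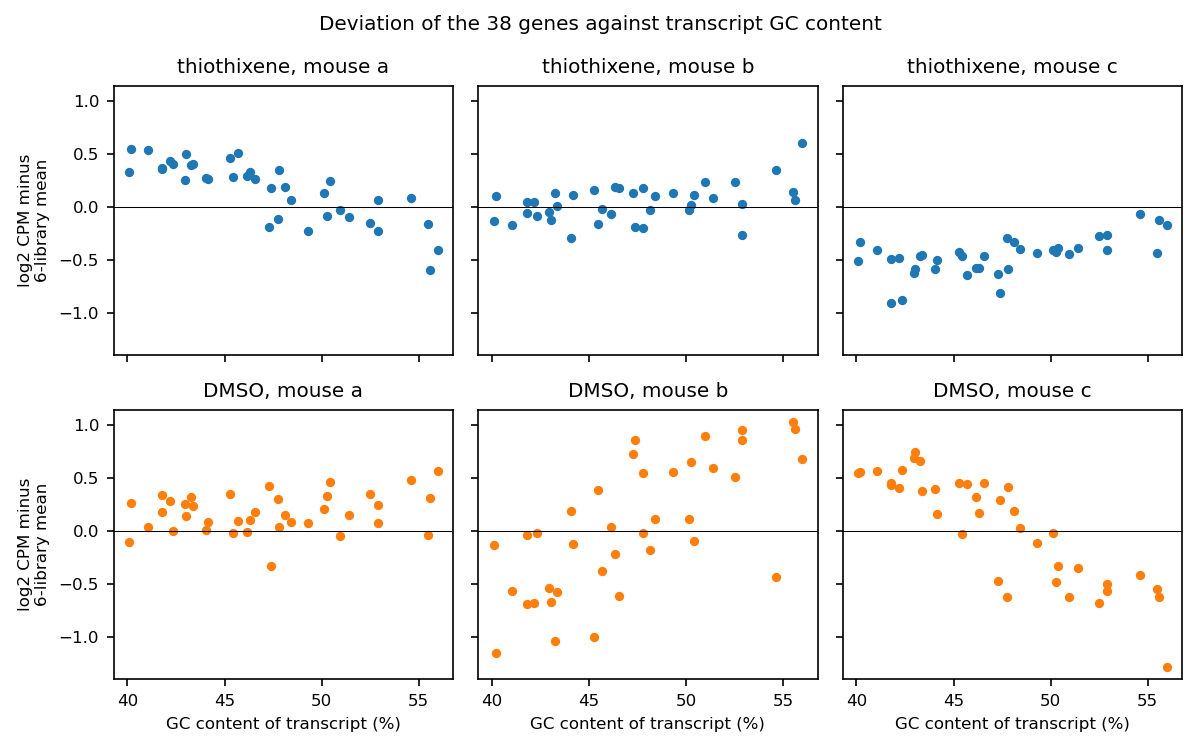
Deviation of each of the 38 genes from its 6-library mean (log2 CPM, vertical) against GC content of its transcript in percent (horizontal), a panel per library, thiothixene in blue and DMSO in orange. The slope falls in the DMSO library of mouse c (r = -0.88) and rises in that of mouse b (r = 0.71), and the points of the thiothixene library of mouse c lie below 0 at every GC content.

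With offsets for GC content and length fitted in each library, a choice made after seeing the data, the drug library of mouse c was the lowest of the 6 for 34 of 38 members. For comparison, 14.6% of all genes had their lowest value there. The DMSO library of mouse b became the highest for 23 of 38. The share of all genes highest there was not determined with offsets, and was 33.9% without them. With the offsets, 24, 25 and 36 of 38 members were lower with thiothixene in mice a, b and c. The shares of all genes lower in each mouse were not determined in that setting. The members' median log2 ratios were -0.05, -0.23 and -0.39 in these mice, against 0.06, -0.04 and -0.70 without offsets. The median log2 fold change was -0.23, with 34 below 0, and 0 members were called, as were 0% of all genes. A fit without the 3 libraries that stood furthest from the rest (thiothixene of mouse a, DMSO of mice b and c) placed all 38 below 0 with a median of -0.34. It called 0 members, against 6.99% of all genes. That fit set the drug libraries of mice b and c against a lone DMSO library of mouse a, so treatment and mouse cannot be told apart in it. The share of all genes below 0 was not determined in that fit or in the fit with offsets.

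Other mitosis genes, 86 of them tested, were also mostly below 0. Of these 65 were below 0 and 21 above, with a median of -0.14, and 0 passed in either direction. The mouse c drug library had a median deviation of -0.39 over this list, and without it the median log2 fold change was 0.03. The most abundant were Tubb5, a beta-tubulin, at 1120 ± 81.9 against 1358 ± 473 CPM (-0.28, SE 0.32), and Smc4, a condensin subunit, at 211 ± 61.3 against 214 ± 91.6 CPM (-0.02, SE 0.40). Genes of DNA replication and G1/S were below 0 for 33 of 40 tested, with a median of -0.18 and 0 called. Their summed level was 4850, 4653 and 4600 CPM with thiothixene in mice a, b and c and 4842, 5738 and 4975 CPM with DMSO. The ratio of that sum to the mitosis sum was 1.52 in the mouse c drug library and 1.40 in the mouse b control. It lay between 0.966 and 1.07 in the other 4 libraries. Pcna, the replication clamp, was at -0.07 (SE 0.28) and cyclin D1 (Ccnd1) at 0.07 (SE 0.26).

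Regulators of mitosis genes (such as subunits of MuvB and NF-Y) were below 0 for 14 of 19 tested, median -0.12, with 0 called. The most abundant were Cebpa, a myeloid transcription factor, at -0.42 (SE 0.71), and Rbbp4, a histone-binding subunit, at -0.17 (SE 0.26). CDK inhibitors and other genes of cell cycle exit were below 0 for 14 of 22, median -0.13, and 0 were called. Among them Maf, a macrophage transcription factor, was at -0.44 (SE 0.31) and Mdm2, the p53 ubiquitin ligase, at 0.18 (SE 0.38).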

How the data were processed

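For each of 6 paired-end RNA libraries the authors deposited a raw count for every gene. The tools STAR 2.7.11b, Trim Galore 0.6.10, FastQC 0.11.8 and DESeq2 1.44 and the build mm10 are named without roles, per the submitters' processing notes. Which program counted, with which strand setting and annotation, is not given in the sources used here. Rows that name no gene held 51.2% to 53.4% of counts and were left out. Symbols, lengths and GC content came from GENCODE vM21 (GRCm38), and 52073 of 56691 identifiers matched without versions.

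The test was edgeR 4.0.16 in R 4.3.3, quasi-likelihood with TMM scaling, filterByExpr, treatment as sole term and Benjamini-Hochberg adjustment over all tested genes. It was also run on simulated counts with known changes, which held no per-library distortion by GC content or length. Standard errors come from the size of each log2 fold change over its root F statistic. The mice pair the libraries. Deviations from group means correlated at -0.131, 0.318 and -0.301 for mice a, b and c. Between libraries of different mice they correlated at -0.411 to 0.486. The highest value was for the mouse a drug library with the mouse c control, so same-mouse libraries were not the most alike. In both of these the deviation fell with GC content over all tested genes (r = -0.45 and -0.55). The part of that relation in these correlations was not tested, so they do not show whether the pairing matters. The fit with the mouse as a replicate block called 0 genes. Alternatives were that block, RLE, other filters, DESeq2 1.42.0, limma-voom (limma 3.58.1), leaving out libraries, and per-library spline offsets (5 degrees of freedom) for GC content and transcript length, added after the data were seen.

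Members and lists were chosen with earlier results of these data known. Values in every library are given for Mki67, Top2a, Cdk1, Ccnb1, Foxm1 and the genes of highest and lowest fold change per role. The lists' most abundant 2 genes are named.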

Additional observations from a re-analysis of the deposited data

How the results depend on the processing

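The count of 0 called members held under each alternative run. Over all genes the count was 1 without a low-count filter, 2 in DESeq2 and 1105 without the 3 libraries that stand apart, which leaves a lone DMSO library, and 0 in the other settings. The median over members stayed below 0 throughout, from -0.31 to -0.02 when single libraries were left out, and members below 0 numbered 21 (without the thiothixene library of mouse c) to 36. The log2 ratio of summed levels was -0.15, and 0.03 without that library. With the replicate block the median was -0.15 with 32 members below 0, and the block changed no call. The lowest count of a member in any library was 182, and standard errors of the members ran from 0.27 to 0.52.

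Of 570 member values over 15 settings, 508 kept their direction and 62 changed sign, all of them uncalled, and the cause was not tested. Log2 fold changes that changed sign were Plk1 0.021, Cenpf 0.04, Kif11 0.00047, Kif23 -0.033 with the replicate block, Kif23 -0.0051 with RLE, Kif23 -0.0018 with the stricter filter and Plk1 0.063, Cenpf 0.0043, Kif23 -0.041 in limma-voom. They were Kif23 -0.24, Anln -0.45, Ect2 -0.36, Foxm1 -0.32 without the 3 libraries, Plk1 0.0037, Kif23 -0.059 with GC and length offsets, and Plk1 0.017, Kif23 -0.10 with offsets and the replicate block. Leaving out single libraries gave Ccna2 -0.41 to 0.013, Ccnb1 -0.20 to 0.15, Cdk1 -0.49 to 0.026, Aurkb -0.47 to 0.031, Plk1 -0.54 to 0.16, Ttk -0.51 to 0.21, Cdca8 -0.72 to 0.066, Bub1 -0.36 to 0.29, Bub1b -0.20 to 0.23, Mad2l1 -0.44 to 0.058, Ube2c -0.72 to 0.14, Cdca3 -0.55 to 0.26, Cenpf -0.44 to 0.27, Kif11 -0.30 to 0.18, Kif20a -0.21 to 0.023, Kif23 -0.17 to 0.24, Kif4 -0.23 to 0.033, Prc1 -0.38 to 0.18, Hmmr -0.37 to 0.11, Anln -0.29 to 0.28, Ect2 -0.27 to 0.43, Mki67 -0.29 to 0.19 and Top2a -0.28 to 0.16.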
